A study of Mus musculus with 24 samples.

Results

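Brown adipocytes grown in a dish were set against the fat they came from. The comparison takes 8 of the 24 libraries of the series: 2 RPF and 2 RNA libraries of cultured brown adipocytes at day 5 of differentiation, and 2 RPF and 2 RNA libraries of interscapular brown adipose tissue (BAT). RPF are ribosome-protected fragments, the stretches of mRNA that ribosomes shield from digestion, and RNA is RNA-seq of the whole message. Of the 22418 genes in the deposited table, the 5035 with a value above 0 in all 24 libraries were tested. All animals were C57BL/6 mice without a transgene named in the labels. The cultures began as stromal vascular fraction cells from interscapular BAT of mice 2 to 3 weeks old, several animals to a batch. They were induced with insulin, dexamethasone, IBMX and rosiglitazone, then kept in insulin and last in serum medium until day 5. BAT came from male mice 6 weeks old, 3 animals pooled into each replicate, minced and shared between the assays. The same cultures at day 0 and the matching white set, cultured subcutaneous adipocytes at day 5 against epididymal fat (eWAT), served as further groups.

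Brown adipocytes burn fuel to make heat. They hold many small lipid droplets and many mitochondria, and the uncoupling protein Ucp1 lets the respiratory chain run without making ATP. In the animal they are fed by nerves and vessels and sit among endothelial cells, fibroblasts and immune cells, while in culture they grow on plastic in sugar-rich medium with added hormones. RPF depends on how much mRNA a gene has and on how many ribosomes each mRNA carries. The ratio of RPF to RNA is called translational efficiency (Eff). Eff changes when RPF and RNA do not change alike, whichever of them moved.

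Values are RPKM, reads per kilobase of coding sequence scaled to the mapped reads of the library, and a difference is the log2 RPKM of culture minus that of BAT, so 1 is a doubling. Each carries a standard error (SE) from the fit over all libraries of its assay, with 2 libraries per group, and a gene passed at an adjusted p under 0.05 (limma, Benjamini and Hochberg over 5035 genes). Mapped reads were inferred from the RPKM values, as told under the processing. They came to 986159 and 1005949 in the RPF libraries of culture and to 896337 and 1765714 in those of BAT. Reads per gene had a median of 56 in each culture library and of 38 and 75 in BAT. The RNA libraries had 6988471 and 3757577 reads in culture and 6537941 and 6783201 in BAT. All RPF libraries of cultures were run on another lane than those of tissues, so lane and culture cannot be told apart in RPF. Since BAT holds other cells beside adipocytes, fewer cells of a kind and less RNA per cell cannot be told apart either. The labels do not say whether the paired libraries of a culture came from separate dishes, so the p-values measure the spread between these libraries, which may be technical.

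Reads were ranked only among tested genes whose reads could be inferred, so that genes outside the tested set, such as Ucp1, have no rank. The 20 most read of the ranked genes took 15.9 percent of the RPF reads in both culture libraries. In BAT they took 22 and 21.2 percent. A single gene, the fatty acid synthase Fasn, held 5.83 and 5.30 percent of RPF reads in BAT. The median gene was higher in culture, by 0.45 in RPF and 0.32 in RNA on the log2 scale. The tested genes whose reads could be inferred also held a larger share of the culture reads. In RPF it was 85.3 and 85.4 percent in culture, against 81.2 and 81.1 percent in BAT. In RNA it was 80.8 and 81.1 percent, against 76.1 and 76.1 percent. Whether the filter, which asks for a value in every library, moved this median was not tested. A median-of-ratios scaling, which sets that median near 0, was run beside the deposited scaling, and counts of genes are given under both.

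In RPF, 1809 genes rose in culture (35.9 percent of those tested) and 423 fell (8.4 percent). After median-of-ratios scaling 595 rose (11.8 percent) and 878 fell (17.4 percent), and these include all of the 423 genes that fell under the deposited scaling. In RNA, 2562 rose (50.9 percent) and 640 fell (12.7 percent), against 1398 (27.8 percent) and 1341 (26.6 percent) after scaling. In Eff, 439 rose (8.72 percent) and 459 fell (9.12 percent), against 233 (4.63 percent) and 636 (12.6 percent). The counts of each gene list below are to be read beside these shares of all genes. RPF and RNA rose together in 1340 genes and fell together in 259. Opposite calls were few: RNA rose and RPF fell in 63 genes (1.25 percent), and RNA fell and RPF rose in 20 (0.397 percent).

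**Figure D1:**
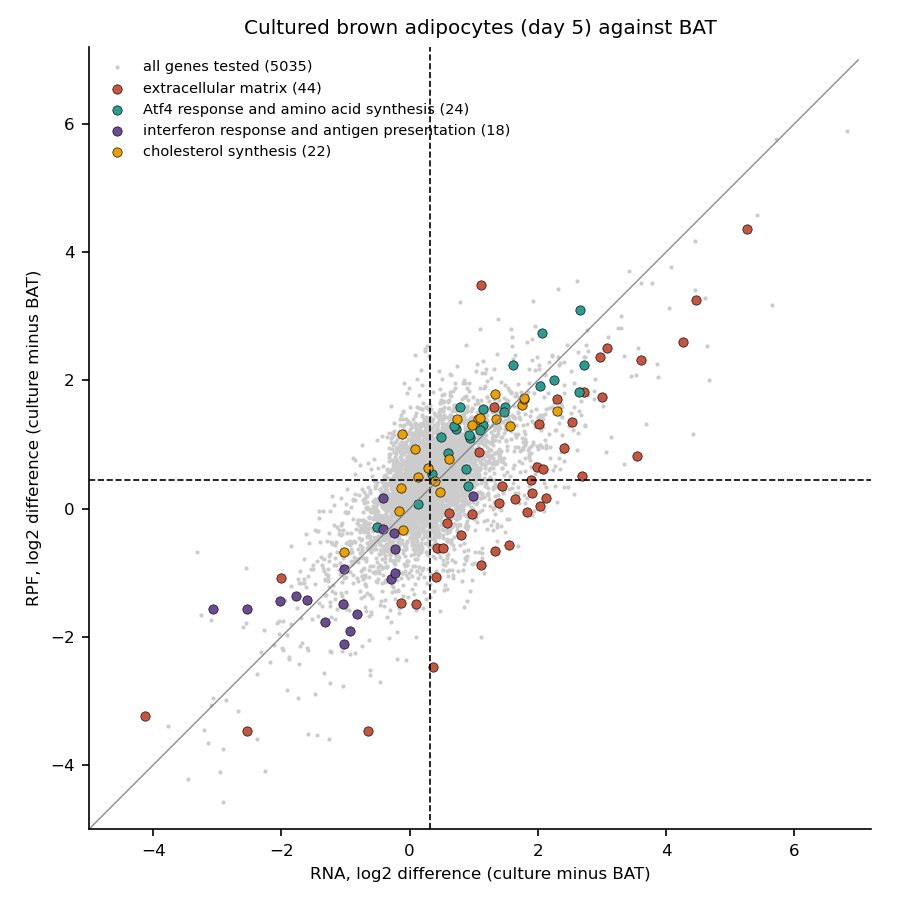
Log2 difference in RPF (y axis) against log2 difference in RNA (x axis), cultured brown adipocytes at day 5 minus BAT, for 5035 genes (grey), with members of 4 gene lists in colour and dashed lines at the all-gene medians of 0.45 and 0.32. Most of the 44 extracellular matrix genes lie to the right of the diagonal, with a median of 1.6 in RNA and 0.20 in RPF, while most of the 24 Atf4 response genes lie near the diagonal and above 0 in both.

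The adipocyte identity of both samples was read from the genes that mark it. Fabp4, the fatty acid carrier of adipocytes, had 45705 and 46295 RPKM in culture, against 26355 and 25601 RPKM in BAT. Its level was at least as high in the dish as in the tissue, with a difference of 0.82 ± 0.08 in RPF (adjusted p = 5.45e-06) and 0.79 ± 0.11 in RNA. Pparg, the master regulator of adipogenesis, had 411 and 422 RPKM in culture, against 206 and 209.6 RPKM in BAT and rose by 1.00 ± 0.17. Slc2a4, the insulin-regulated glucose transporter Glut4, had 625 and 606 RPKM in culture, against 407 and 375 RPKM in BAT, a difference of 0.66 ± 0.20 that passed under the deposited scaling only. Lpl, the lipase that takes up blood triglyceride, rose by 0.87 ± 0.08. Hormone-sensitive lipase, Lipe, fell in RNA by 0.86 ± 0.11 and its RPF difference of -0.53 ± 0.22 did not pass under the deposited scaling. Acsl1, which activates long-chain fatty acids, fell in both assays, by 0.52 ± 0.13 in RPF and 0.94 ± 0.09 in RNA. Of 22 adipocyte genes listed, 15 were measured, of which 4 rose and 7 fell (3 and 9 after median-of-ratios scaling) in RPF, with a median of -0.52.

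Among the adipocyte genes that were lower in culture were secreted proteins and a regulator. Cfd (adipsin), a protease that adipocytes secrete, had 309.8 and 349.6 RPKM in culture, against 5140.0 and 6305 RPKM in BAT, and the libraries of the groups lie far apart. Its difference was -4.11 ± 0.12 (adjusted p = 1.77e-10). Car3, the carbonic anhydrase of fat and muscle, had 7168 and 6639.5 RPKM in culture, against 15365 and 15502 RPKM in BAT and fell by 1.16 ± 0.09. Cebpa, a partner of Pparg, fell by 0.62 ± 0.15 in RPF and 0.58 ± 0.18 in RNA. Adiponectin (Adipoq) had 1529.9 and 1711 RPKM in culture, against 2329 and 2544 RPKM in BAT and fell in RPF by 0.59 ± 0.17, with an RNA difference of 0.16 ± 0.26 that did not pass.

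Ucp1, Cidea and 31 further members of a list of 39 thermogenic genes lack a value in some library and were not tested, since a gene had to be read in preadipocytes and in white fat as well. The 6 that were tested went both ways. Acot2, a thioesterase of mitochondria, had 228 and 217 RPKM in culture, against 94.3 and 85.7 RPKM in BAT and rose by 1.31 ± 0.17, and Ebf2, a factor of brown precursors, by 0.64 ± 0.23, which passed under the deposited scaling only. Letmd1, a mitochondrial protein abundant in brown fat, had 304 and 297 RPKM in culture, against 553 and 590.4 RPKM in BAT and fell by 0.93 ± 0.20. Slc25a20, the carnitine carrier of mitochondria, fell by 1.12 ± 0.17 and Slc29a1, a nucleoside transporter, had a difference of -2.24 ± 0.29.

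Markers of other cells were almost wholly outside the tested set, which asks for a value in cultures too. None of 30 endothelial, 10 erythroid and 28 skeletal muscle markers was tested. Of 29 macrophage markers only the lysozymes Lyz1 and Lyz2 were, 1 of 20 lymphocyte, 1 of 19 nerve and 4 of 15 pericyte markers. Lyz2, the lysozyme of myeloid cells, had 43.2 and 37.9 RPKM in culture, against 693 and 682 RPKM in BAT, a difference of -4.09 ± 0.23, and Lyz1, that of Paneth cells in the gut, had 13.6 and 8.92 RPKM in culture, against 228 and 185 RPKM in BAT. The near-identical coding sequences of these lysozymes mean that reads could be shared between them. Thy1, the lymphocyte marker tested, is also made by fibroblasts and had an RPF difference of -0.59 ± 0.36 that did not pass under the deposited scaling. The part of other cells in the differences described here was not tested.

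Some genes differed by more than an order of magnitude. Among the 8 highest in RPF were Ero1l, Fkbp5, Thbs1, Igfbp3, Ms4a4d, Pck2 and Fabp5. Thbs1, a matricellular protein that activates TGF-beta, had 175 and 199 RPKM in culture, against 5.40 and 15.1 RPKM in BAT, with the BAT libraries wide apart, and differed by 4.37 ± 0.32. It was higher still at day 0, where it averaged 2741 RPKM in RPF.

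Igfbp3, which binds insulin-like growth factors, had 115 and 120.0 RPKM in culture, against 5.08 and 8.39 RPKM in BAT and differed by 4.17 ± 0.23. Ms4a4d, a membrane protein of the Ms4a family, had 288 and 266 RPKM in culture, against 19.8 and 20.9 RPKM in BAT and differed by 3.77 ± 0.27. Fabp5, the epidermal fatty acid carrier, had 7238 and 7349 RPKM in culture, against 644 and 604 RPKM in BAT, a difference of 3.55 ± 0.11 (adjusted p = 2.26e-10). Fabp4, its relative, differed by 0.82 ± 0.08. Ero1l, Pck2 and Fkbp5 belong to lists described further on.

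Among the 8 lowest in RPF were Igfbp5, Lyz1, Cfd, Lyz2, Trf, Elovl6 and Tnxb, and all of these except Elovl6, an enzyme of the endoplasmic reticulum, encode proteins that cells secrete. Igfbp5, another binder of insulin-like growth factors, had 12.4 and 7.32 RPKM in culture, against 239.6 and 216 RPKM in BAT, a difference of -4.58 ± 0.31 (adjusted p = 3.28e-07), opposite in sign to Igfbp3. Trf, the iron carrier transferrin, had 32.0 and 37.0 RPKM in culture, against 450.4 and 480.3 RPKM in BAT and differed by -3.76 ± 0.20. Tnxb, tenascin X of connective tissue, had 4.22 and 4.45 RPKM in culture, against 52.7 and 52.5 RPKM in BAT. In each of these genes both culture libraries lay below both BAT libraries, as the choice of the genes required. Over all tested genes, the libraries of culture and BAT did not overlap in 78.8 percent.

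**Figure D2:**
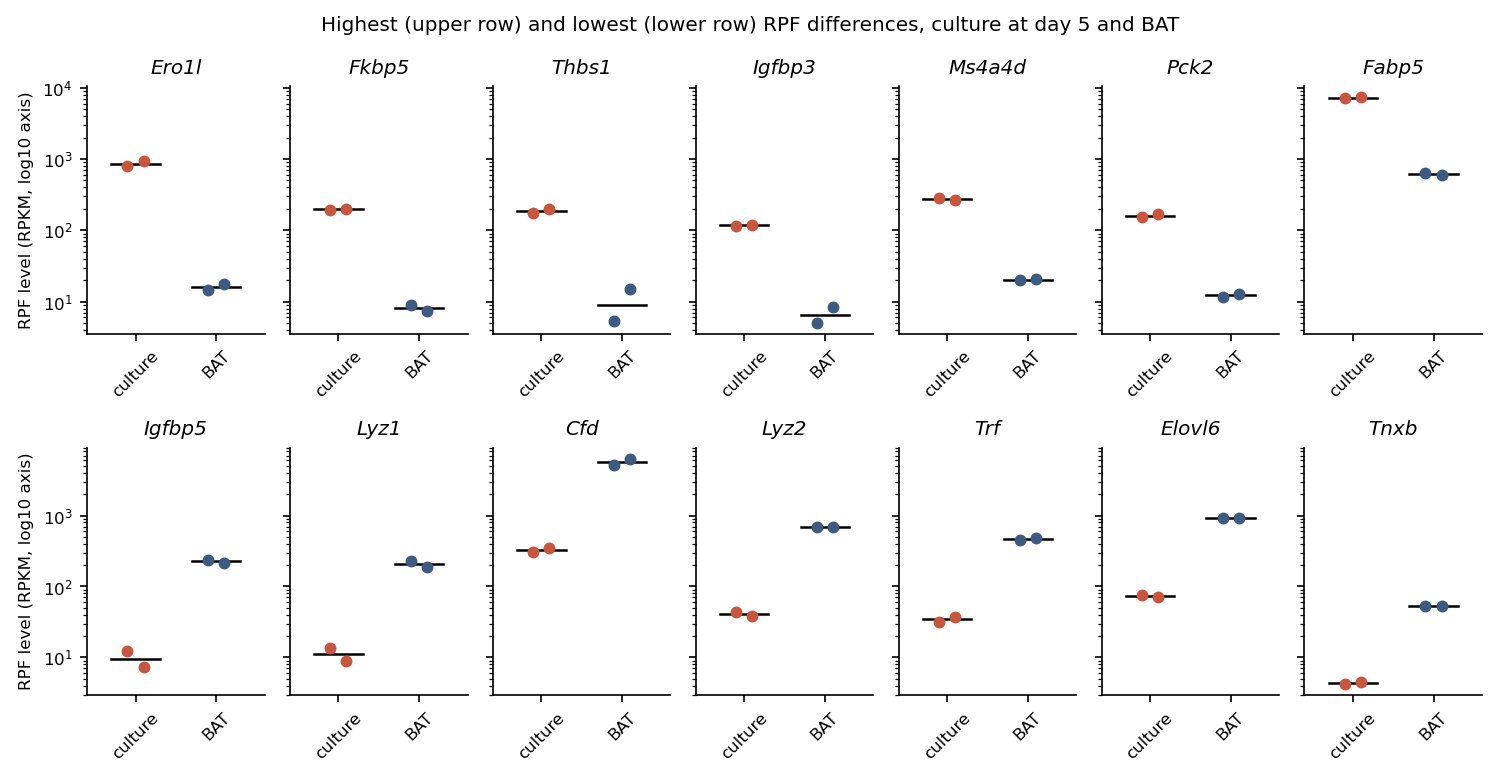
RPF level (RPKM, log10 axis) of 7 of the 8 genes with the highest and 7 of the 8 with the lowest log2 difference, each library a point, cultured brown adipocytes at day 5 on the left and BAT on the right of each panel, with a bar at the geometric mean of 2 libraries. Ero1l lies at 798 and 927 RPKM in culture against 14.4 and 17.5 in BAT, and Cfd at 309.8 and 349.6 in culture against 5140.0 and 6305 in BAT.

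Among the 8 highest in RNA were Ero1l, Agt, Fkbp5, Thbs1, Slc5a3, Gpnmb and Cdh11. Agt, the precursor of angiotensin, had 490.4 and 456 RPKM in culture, against 7.39 and 12 RPKM in BAT, a difference of 5.65 ± 0.18 (adjusted p = 6.34e-11). Its RPF followed by less, with 299 and 345 RPKM in culture, against 30.8 and 40.7 RPKM in BAT and a difference of 3.18 ± 0.18, so that Eff fell by 2.47 ± 0.27. Slc5a3 is the myo-inositol transporter that cells raise under salt stress. In RNA it had 11.7 and 14.9 RPKM in culture, against 0.497 and 0.547 RPKM in BAT, where the values are low. It differed by 4.66 ± 0.22 in RNA and 2.01 ± 0.24 in RPF. Gpnmb, a glycoprotein of lysosomes, had 56.9 and 54.0 RPKM in culture, against 2.40 and 2.05 RPKM in BAT and differed by 4.64 ± 0.16. Cdh11, the cadherin of mesenchymal cells, had 28.3 and 32.8 RPKM in culture, against 1.34 and 1.17 RPKM in BAT and differed by 4.60 ± 0.17.

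At the other end of RNA stood Timp3, Tspan7, Lyz1, Sgk1, Klf2, Gpx1, Elovl6 and Tpm2. Timp3, an inhibitor of matrix proteases, had 3.15 and 3.35 RPKM in culture, against 53.5 and 60.4 RPKM in BAT, a difference of -4.13 ± 0.12 (adjusted p = 3.32e-11). Tspan7, a tetraspanin of the cell surface, had 3.82 and 5.33 RPKM in culture, against 52.3 and 72.2 RPKM in BAT and Klf2, a factor known from endothelium, had 8.88 and 7.25 RPKM in culture, against 58.2 and 100.5 RPKM in BAT, differences of -3.77 ± 0.23 and -3.25 ± 0.23. Gpx1 encodes a glutathione peroxidase whose active site holds selenium. It had 106 and 90.2 RPKM in culture, against 836 and 978 RPKM in BAT in RNA and 36.9 and 27.9 RPKM in culture, against 369 and 337 RPKM in BAT in RPF, differences of -3.21 ± 0.11 and -3.46 ± 0.27. Tpm2, a tropomyosin of muscle and fibroblasts, had 18.6 and 20.3 RPKM in culture, against 195 and 141 RPKM in BAT and differed by -3.09 ± 0.23.

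Genes of the Atf4 response were higher in culture as a group. Atf4 is the transcription factor that cells make when amino acids run short or the endoplasmic reticulum is under load, and it turns on serine synthesis, asparagine synthesis and the tRNA synthetases. Of 36 genes listed, 24 were measured (Atf4 itself was not), of which 20 rose and 0 fell (17 and 0 after median-of-ratios scaling) in RPF and 21 rose and 1 fell (20 and 1 after median-of-ratios scaling) in RNA. The median differences were 1.29 and 1.02, against 0.45 and 0.32 over all genes. The glucocorticoid and Atf4 lists share Ddit4.

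Phgdh catalyses the first step of serine synthesis and had 240.1 and 245 RPKM in culture, against 61.3 and 67.9 RPKM in BAT, a difference of 1.91 ± 0.14 (adjusted p = 4.64e-07). Psat1, the next enzyme, had 68.0 and 77.5 RPKM in culture, against 20.2 and 21.1 RPKM in BAT and differed by 1.82 ± 0.19. Psph, which makes serine in the last step, went the other way, with 34.7 and 37.7 RPKM in culture, against 50.8 and 52.0 RPKM in BAT in RNA and a difference of -0.51 ± 0.10. In RPF its libraries overlapped, at 40.4 and 47.0 RPKM in culture, against 42.8 and 66.1 RPKM in BAT. Shmt2, which passes the carbon of serine to folate in mitochondria, had 72.1 and 63.4 RPKM in culture, against 19.3 and 14.7 RPKM in BAT and differed by 2.01 ± 0.24. Aldh18a1, which starts proline synthesis, differed by 2.25 ± 0.27, and Asns, asparagine synthetase, by 1.11 ± 0.14.

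Pck2, the mitochondrial enzyme that makes phosphoenolpyruvate and a known target of Atf4, had 153 and 167 RPKM in culture, against 11.7 and 12.7 RPKM in BAT, a difference of 3.71 ± 0.18 (adjusted p = 1.57e-08). Atf5, a relative of Atf4, had 343 and 369 RPKM in culture, against 60.3 and 47.3 RPKM in BAT and differed by 2.74 ± 0.17. Ddit4, an inhibitor of the mTORC1 kinase, had 165 and 228 RPKM in culture, against 17.8 and 28.8 RPKM in BAT and differed by 3.10 ± 0.28. Nupr1, a stress-induced nuclear protein, had 536 and 518 RPKM in culture, against 148 and 211 RPKM in BAT and differed by 1.58 ± 0.29. Culture was the higher group in every library of these genes.

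Some tRNA synthetases rose in RPF by more than in RNA. Eprs, which charges glutamate and proline, had 219 and 216 RPKM in culture, against 47.2 and 45.1 RPKM in BAT in RPF, a difference of 2.24 ± 0.17 beside 1.62 ± 0.10 in RNA. Gars, Nars and Yars, for glycine, asparagine and tyrosine, differed by 1.25 ± 0.15, 1.28 ± 0.14 and 1.58 ± 0.21 in RPF and by 0.72 ± 0.08, 0.70 ± 0.08 and 0.79 ± 0.10 in RNA. Their Eff passed the test under the deposited scaling, as that of Eprs did, but under median-of-ratios scaling no member of the list rose in Eff.

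The binding site of Atf4 and its partners, the amino acid response element TGATGNAA, was searched on both strands in the 300 bases from 250 before to 50 after the gene start (RefSeq promoters, GRCm38.p6). It was found in 8 of the 20 members that have a promoter there and in 2.54 percent of the 3976 tested genes with a promoter. The windows run 5′ to 3′ on the strand of the gene, with the match, or its reverse complement, in capitals and 30 bases on each side. They show the element in genes that rose in RPF, of which Vldlr did so under the deposited scaling only.
Asns, chr6:7693195-7693262, minus strand: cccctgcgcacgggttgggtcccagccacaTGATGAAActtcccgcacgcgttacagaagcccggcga
Gars, chr6:55037941-55038008, plus strand: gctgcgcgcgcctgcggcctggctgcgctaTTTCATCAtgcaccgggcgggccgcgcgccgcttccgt
Yars, chr4:129189876-129189943, plus strand: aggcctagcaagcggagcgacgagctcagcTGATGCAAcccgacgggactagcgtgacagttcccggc
Iars, chr13:49682107-49682174, plus strand: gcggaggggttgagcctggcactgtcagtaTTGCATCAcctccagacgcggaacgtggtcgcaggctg
Aars, chr8:111033700-111033767, plus strand: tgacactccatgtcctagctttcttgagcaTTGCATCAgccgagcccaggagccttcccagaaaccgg
Aars, chr8:111033821-111033888, plus strand: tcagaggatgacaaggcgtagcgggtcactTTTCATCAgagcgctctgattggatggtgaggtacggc
Nupr1, chr7:126625543-126625610, minus strand: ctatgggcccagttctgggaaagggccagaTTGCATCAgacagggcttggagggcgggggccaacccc
Vldlr, chr19:27216790-27216857, plus strand: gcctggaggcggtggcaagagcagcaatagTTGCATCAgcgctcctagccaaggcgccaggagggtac

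The match starts 23 bases before the start of Asns and 30 before that of Gars, and 4 bases after that of Yars and 8 after that of Iars. Aars holds a match on each side of its start. RPF of these genes differed by 1.11 ± 0.14 for Asns, 1.15 ± 0.17 for Aars (the alanine synthetase), 1.51 ± 0.20 for Iars (isoleucine) and 0.61 ± 0.22 for Vldlr, a lipoprotein receptor. Tars, for threonine, also holds the element and differed by 1.12 ± 0.24 (deposited scaling only). Aars, Asns, Iars, Tars and Vldlr were named after their values were seen. Phgdh, Psat1 and Atf5 hold no match in this window or have no promoter in the table. A match is a stretch of letters, and binding was not measured.

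The endoplasmic reticulum makes and folds secreted proteins, and most of its chaperones were higher in culture in RNA. Of 29 genes listed, 27 were measured. In RNA 24 rose and 2 fell (20 and 2 after median-of-ratios scaling), where 50.9 percent of all genes rose (27.8 percent after scaling). In RPF 15 rose and 3 fell (5 and 5 after median-of-ratios scaling), so that no direction of the list in RPF holds under both scalings. In Eff 1 rose and 8 fell (1 and 13 after median-of-ratios scaling), with a median of -0.39.

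Ero1l, the oxidase that drives the forming of disulfide bonds and is induced by low oxygen, stood far from the rest with 798 and 927 RPKM in culture, against 14.4 and 17.5 RPKM in BAT, a difference of 5.76 ± 0.16 (adjusted p = 1.77e-10). In RNA it had 781 and 829 RPKM in culture, against 18.5 and 12.7 RPKM in BAT. P4hb, the disulfide isomerase that is also a subunit of the collagen hydroxylase, had 423 and 483 RPKM in culture, against 152 and 149 RPKM in BAT and differed by 1.59 ± 0.13. The abundant chaperone Hspa5 (BiP) had 438 and 466 RPKM in culture, against 250.2 and 213 RPKM in BAT in RNA and 449.5 and 493 RPKM in culture, against 317 and 349 RPKM in BAT in RPF, differences of 0.97 ± 0.09 and 0.50 ± 0.11, the second of which passed under the deposited scaling only. Calr, the calcium-binding lectin chaperone, rose in RNA by 0.70 ± 0.08 and had an RPF difference of 0.31 ± 0.12 that did not pass.

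A few members fell in RPF. Dnajc3, which restrains the kinase that shuts down translation under folding stress, had 68.7 and 77.2 RPKM in culture, against 42.2 and 38.3 RPKM in BAT in RNA but 20.8 and 19 RPKM in culture, against 33.2 and 34.8 RPKM in BAT in RPF, differences of 0.86 ± 0.10 and -0.77 ± 0.23. Its Eff fell by 1.63 ± 0.24 (adjusted p = 9.3e-05). Hyou1, a large chaperone, fell by 0.65 ± 0.19 in RPF and Sec61b, a subunit of the protein channel, by 0.48 ± 0.17. Ssr2, of the translocon-associated complex, rose in RNA by 0.89 ± 0.09 and its Eff fell by 1.08 ± 0.18.

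The ER stress response element, bound by Atf6 together with NF-Y, was searched as CCAAT, 9 free bases, CCACG on both strands of the same promoters. It was found in 7 of 22 list members with a promoter and in 0.252 percent (10) of the 3976 genes. The windows of 4 of them are shown, with the match in capitals from the first to the last fixed base, since these genes rose in RNA and did not move alike in RPF.
Hspa5, chr2:34771995-34772073, plus strand: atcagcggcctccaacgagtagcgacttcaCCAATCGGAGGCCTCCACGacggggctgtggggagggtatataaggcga
Hsp90b1, chr10:86705608-86705686, minus strand: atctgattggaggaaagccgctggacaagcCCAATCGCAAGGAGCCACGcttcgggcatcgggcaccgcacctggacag
Hsp90b1, chr10:86705503-86705581, minus strand: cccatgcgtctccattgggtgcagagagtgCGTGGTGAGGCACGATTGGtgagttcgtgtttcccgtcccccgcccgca
Calr, chr8:84847045-84847123, minus strand: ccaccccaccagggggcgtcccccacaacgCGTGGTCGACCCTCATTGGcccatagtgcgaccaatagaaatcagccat
Dnajc3, chr14:118937797-118937875, plus strand: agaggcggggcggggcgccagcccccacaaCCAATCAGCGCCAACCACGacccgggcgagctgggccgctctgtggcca

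Hsp90b1, the Hsp90 of the endoplasmic reticulum, holds 2 copies and rose in RNA by 0.97 ± 0.12 and in RPF by 0.73 ± 0.12 (deposited scaling only). Hspa5 and Dnajc3 hold a forward copy and Calr a reverse one. Of the other holders, Pdia6, a disulfide isomerase, differed by 0.82 ± 0.08 in RNA and Canx, the membrane-bound lectin chaperone, by 0.77 ± 0.09 (both named after their values were seen). All 4 genes shown rose in RNA, by 0.70 ± 0.08 for Calr, 0.86 ± 0.10 for Dnajc3 and 0.97 ± 0.09 for Hspa5, while in RPF Dnajc3 fell.

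Glucocorticoid targets were among the genes with the largest rise. Dexamethasone, a synthetic glucocorticoid, was in the induction medium and not in the later ones, and the mice had their own corticosterone. Of 21 genes listed, 11 were measured, with medians of 2.05 in RPF and 1.96 in RNA. In RPF 9 rose and 1 fell (7 and 2 after median-of-ratios scaling), where 35.9 percent of all genes rose (11.8 percent after scaling). In RNA 9 rose and 2 fell (9 and 2 after median-of-ratios scaling), where 50.9 percent of all genes rose (27.8 percent after scaling). Fkbp5, a co-chaperone of the glucocorticoid receptor, had 192 and 200.3 RPKM in culture, against 8.96 and 7.44 RPKM in BAT, a difference of 4.58 ± 0.23 (adjusted p = 2.9e-08). At day 0 it averaged 17.4 RPKM.

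Tsc22d3, the glucocorticoid-induced leucine zipper, had 201 and 221 RPKM in culture, against 27.0 and 45.3 RPKM in BAT and differed by 2.59 ± 0.21. Mt1, a metallothionein that binds zinc, had 3596 and 3718 RPKM in culture, against 699.5 and 707 RPKM in BAT, and its neighbour Mt2 had 745 and 677 RPKM in culture, against 157 and 187 RPKM in BAT, differences of 2.38 ± 0.17 and 2.05 ± 0.26. In RNA they differed by 2.22 ± 0.09 and 3.87 ± 0.11, so the Eff of Mt2 fell by 1.81 ± 0.31 while that of Mt1 had a difference of 0.16 ± 0.21. These genes are close in sequence, so reads could be shared. Glul, glutamine synthetase, had 1861 and 1907 RPKM in culture, against 2292 and 2239 RPKM in BAT and fell by 0.27 ± 0.10.

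Sgk1, the serum- and glucocorticoid-regulated kinase, went against the list. In RNA it had 5.54 and 5.04 RPKM in culture, against 48.4 and 57.4 RPKM in BAT, a difference of -3.32 ± 0.11 (adjusted p = 9.6e-11). In RPF it had 12.5 and 9.01 RPKM in culture, against 19.3 and 14.9 RPKM in BAT and its difference of -0.68 ± 0.27 did not pass under the deposited scaling, so that its Eff had the largest rise of all tested genes, 2.64 ± 0.29 (adjusted p = 2.99e-06). The glucocorticoid response element, searched as GNACA and TGTNC with 3 free bases between them, which reads alike on both strands, was found in 2 of 9 members with a promoter, Mt1 and Sgk1, and in 0.302 percent (12) of the 3976 genes. Both windows are shown because the genes differ in direction.
Mt1, chr8:94178965-94179037, plus strand: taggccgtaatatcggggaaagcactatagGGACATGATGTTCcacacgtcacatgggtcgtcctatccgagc
Sgk1, chr10:21993672-21993744, plus strand: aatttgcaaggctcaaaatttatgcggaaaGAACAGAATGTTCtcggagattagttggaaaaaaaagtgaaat

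Of 20 clock genes listed, 6 were measured. In RPF 5 rose and 1 fell (4 and 1 after median-of-ratios scaling), where 35.9 percent of all genes rose (11.8 percent after scaling). In RNA 4 rose and 1 fell (2 and 1 after median-of-ratios scaling), where 50.9 percent of all genes rose (27.8 percent after scaling). No direction of the list in RNA is read from 6 genes. Per1, a repressor of the clock and a glucocorticoid target, had 17.3 and 21.3 RPKM in culture, against 5.47 and 3.36 RPKM in BAT and differed by 2.16 ± 0.30. Nfil3, a repressor of clock output, had 43.1 and 36.5 RPKM in culture, against 5.63 and 2.45 RPKM in BAT and differed by 3.42 ± 0.35. Nr1d1 (Rev-erb alpha), the repressor of Bmal1, was the member that fell, with 10.4 and 8.07 RPKM in culture, against 38.1 and 42.3 RPKM in BAT and a difference of -2.13 ± 0.35 in RPF and -2.11 ± 0.12 in RNA. Tef, an activator of clock output, rose in RPF by 2.46 ± 0.25 and had an RNA difference of 0.24 ± 0.12 that did not pass, with an Eff difference of 2.22 ± 0.28 (adjusted p = 1.48e-05). The hour at which mice or cultures were taken is not given in the sources used here.

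Most measured genes of cholesterol synthesis rose in culture, while those of fatty acid synthesis and desaturation went both ways. Of 27 cholesterol genes listed, 22 were measured, of which 15 rose and 1 fell (12 and 3 after median-of-ratios scaling) in RPF and 15 rose and 1 fell (12 and 4 after median-of-ratios scaling) in RNA. The median difference was 1.23 in RPF, against 0.45 over all genes.

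Insig1, which holds the sterol sensor in the endoplasmic reticulum, had 462 and 421 RPKM in culture, against 169 and 164 RPKM in BAT, a difference of 1.41 ± 0.20 (adjusted p = 0.000124). Cyp51 and Sc4mol, demethylases of the sterol ring, had 117 and 112 RPKM in culture, against 39.1 and 35.6 RPKM in BAT and 112 and 93.7 RPKM in culture, against 30.4 and 32.1 RPKM in BAT, and differed by 1.62 ± 0.17 and 1.71 ± 0.17. Sqle, squalene epoxidase, differed by 1.29 ± 0.25 (named after its values were seen).

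Fdft1, which makes squalene, rose in RPF only, with 178 and 175 RPKM in culture, against 71.4 and 86.5 RPKM in BAT in RPF and 162 and 176 RPKM in culture, against 197 and 172 RPKM in BAT in RNA, and an Eff difference of 1.29 ± 0.26. Hmgcs1, the synthase near the entry of the pathway, had 444 and 405 RPKM in culture, against 446 and 426 RPKM in BAT, and its RPF difference of -0.04 ± 0.11 did not pass under the deposited scaling (it fell by 0.52 after median-of-ratios scaling). It is the single list member of 16 with a promoter that holds the sterol regulatory element in the form TCACNCCAC, which 1.46 percent of the 3976 genes hold. Acat2, a thiolase at the entry of the pathway, fell, with 96.9 and 102 RPKM in culture, against 165 and 153 RPKM in BAT and a difference of -0.68 ± 0.18.

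Of 27 genes of fatty acid synthesis and desaturation, 23 were measured, of which 10 rose and 11 fell (6 and 13 after median-of-ratios scaling) in RPF and 8 rose and 12 fell (7 and 14 after median-of-ratios scaling) in RNA. Fasn, the synthase itself, had 1423 and 1386 RPKM in culture, against 7755 and 7049 RPKM in BAT, a difference of -2.40 ± 0.16 (adjusted p = 2.33e-07). Elovl6, which lengthens palmitate, had 77.0 and 70.6 RPKM in culture, against 919.8 and 932 RPKM in BAT and differed by -3.65 ± 0.27. Acaca, the carboxylase that commits acetyl-CoA to fat, had 563 and 561 RPKM in culture, against 1177 and 1110.1 RPKM in BAT and differed by -1.02 ± 0.15, and Acsl5, an acyl-CoA synthetase, by -2.96 ± 0.24. All 4 fell in RNA too, with differences of -2.18 ± 0.10 for Fasn, -3.15 ± 0.11 for Elovl6, -1.30 ± 0.12 for Acaca and -3.07 ± 0.12 for Acsl5.

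The desaturases of polyunsaturated fatty acids rose instead. Fads1 had 147 and 161 RPKM in culture, against 9.97 and 18.1 RPKM in BAT and Fads2 had 97.3 and 114 RPKM in culture, against 12.5 and 6.79 RPKM in BAT, differences of 3.52 ± 0.25 and 3.51 ± 0.27 in RPF and 3.78 ± 0.09 and 3.60 ± 0.17 in RNA. Srebf1, the transcription factor of fat synthesis, had 354 and 362 RPKM in culture, against 143 and 130.3 RPKM in BAT and rose by 1.39 ± 0.15, opposite in sign to Fasn. Scd1, the desaturase that makes oleate, was the most read gene of culture RPF among genes with inferred reads. It had 27125 and 26773 RPKM in culture, against 24395 and 23896 RPKM in BAT. Its difference of 0.16 ± 0.10 did not pass and changed sign to -0.32, past the test, after median-of-ratios scaling. Scd2 rose by 1.17 ± 0.09, and since the Scd genes are alike in sequence, reads could be shared between them. Acsl3 and Acsl4, which load long-chain and arachidonic acids, rose by 1.51 ± 0.21 and 1.82 ± 0.20 (named after their values were seen).

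**Figure D3:**
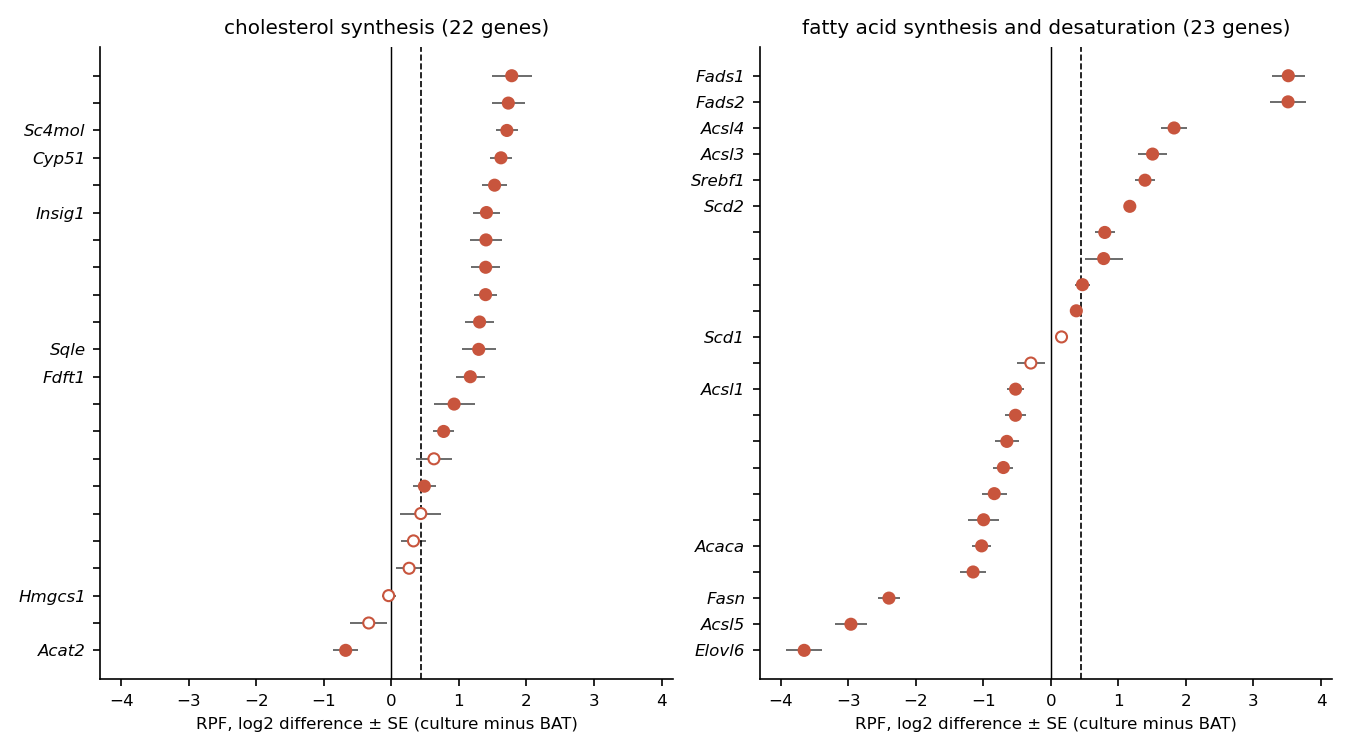
Log2 difference in RPF (x axis, culture minus BAT, bars ± SE) of the 22 measured cholesterol genes and the 23 measured genes of fatty acid synthesis and desaturation, sorted within each panel, with filled points past the test, names for genes the text gives and a dashed line at the all-gene median of 0.45. Most cholesterol genes lie right of the line, and the fatty acid genes run from -3.65 (Elovl6) to 3.52 (Fads1).

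Subunits of oxidative phosphorylation whose reads could be inferred held a like share of the RPF reads in culture and in BAT. They held a lower share of the RNA reads in culture. Many enzymes of fuel oxidation were lower in culture. Of 83 subunits of oxidative phosphorylation, 77 were measured, of which 14 rose and 21 fell (4 and 42 after median-of-ratios scaling) in RPF, with a median of -0.10, or -0.58 after scaling. In RNA 10 rose and 22 fell (3 and 50 after median-of-ratios scaling). The subunits whose reads could be inferred took 7.67 and 7.57 percent of RPF reads in culture and 7.72 and 7.73 percent in BAT. At day 0 they took 0.922 and 1.00 percent. Of RNA reads they took 6.34 and 6.28 percent in culture and 7.28 and 6.99 percent in BAT. Atp5b, the catalytic subunit of ATP synthase, had 8904 and 9070.0 RPKM in culture, against 7468 and 7228 RPKM in BAT, and Cox4i1, of cytochrome oxidase, had 4736 and 5089.6 RPKM in culture, against 3465 and 3364 RPKM in BAT. Ndufa1, a small subunit of complex I, had 1980.2 and 2143 RPKM in culture, against 2394 and 2631 RPKM in BAT, and its difference of -0.29 ± 0.12 did not pass under the deposited scaling.

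Some small subunits moved by much more. The part of the dense footprints at start and stop codons, which the paper reports, in these short coding sequences was not tested. Atp5e, of ATP synthase, had 988 and 862 RPKM in culture, against 4102 and 4405 RPKM in BAT and fell by 2.20 ± 0.16 (adjusted p = 6.38e-07). Usmg5, another small ATP synthase component, had 6176 and 6795 RPKM in culture, against 964 and 1583 RPKM in BAT and rose by 2.39 ± 0.20, with an RNA difference of 0.08 ± 0.17 that did not pass. Atpif1, the inhibitor of ATP synthase, had 415 and 447 RPKM in culture, against 73.2 and 65.5 RPKM in BAT, and Atp5g1, of the membrane rotor, had 190.4 and 194 RPKM in culture, against 38.1 and 49.7 RPKM in BAT, rises of 2.64 ± 0.18 and 2.14 ± 0.18. Its near relative Atp5g2 fell by 0.96 ± 0.20.

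Ndufaf1, an assembly factor of complex I, rose in RPF. It had 254 and 304 RPKM in culture, against 90.0 and 103 RPKM in BAT in RPF and 59.4 and 63.8 RPKM in culture, against 79.3 and 55.1 RPKM in BAT in RNA, differences of 1.53 ± 0.19 and -0.10 ± 0.16, the second of which did not pass under the deposited scaling. Its Eff differed by 1.63 ± 0.25 (adjusted p = 0.000158). Acad9, also needed for complex I assembly, had an RPF difference of 0.23 ± 0.22 and an Eff difference of 0.57 ± 0.23, neither of which passed.

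All 19 citric acid cycle genes listed were measured, of which 2 rose and 14 fell (0 and 16 after median-of-ratios scaling) in RNA and 1 rose and 7 fell (1 and 13 after median-of-ratios scaling) in RPF. Ogdh, which makes succinyl-CoA, had 645 and 632 RPKM in culture, against 1426 and 1422 RPKM in BAT and fell by 1.16 ± 0.20 (adjusted p = 0.000606). Pdha1, the pyruvate dehydrogenase subunit, had 1069 and 1056 RPKM in culture, against 1952 and 1896 RPKM in BAT and fell by 0.86 ± 0.11. Idh2, the NADP-linked isocitrate dehydrogenase, was the single one to rise in RPF, with 691 and 712 RPKM in culture, against 374 and 383 RPKM in BAT and a difference of 0.89 ± 0.13. Citrate synthase (Cs) had 2886 and 2791 RPKM in culture, against 2636 and 2555 RPKM in BAT, a difference of 0.13 ± 0.13 that did not pass.

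Fatty acid oxidation fell in RNA nearly throughout. Of 20 measured genes (22 listed) 1 rose and 17 fell (1 and 18 after median-of-ratios scaling) in RNA and 1 rose and 7 fell (1 and 17 after median-of-ratios scaling) in RPF, with medians of -0.81 and -0.32. Acadl, the long-chain dehydrogenase, had 2020.2 and 1882 RPKM in culture, against 3906 and 4180.5 RPKM in BAT and fell by 1.05 ± 0.11 in RPF and 1.58 ± 0.10 in RNA. Hadhb, the thiolase of the trifunctional protein, had 2747 and 2603 RPKM in culture, against 6203 and 5722 RPKM in BAT and fell by 1.16 ± 0.17, while its partner Hadha had 2023 and 2078 RPKM in culture, against 2204 and 2165 RPKM in BAT, a difference of -0.09 ± 0.10 that did not pass under the deposited scaling. Cpt2, which frees fatty acids from carnitine inside mitochondria, fell by 0.71 ± 0.18, and Acaa2, the last thiolase, by 0.53 ± 0.16. The 7 members that rose in Eff under the deposited scaling did not pass after median-of-ratios scaling.

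Genes of glycolysis mostly rose in RPF under the deposited scaling and were mixed after median-of-ratios scaling. Of 20 genes listed, 17 were measured, of which 11 rose and 1 fell (6 and 4 after median-of-ratios scaling) in RPF, with a median of 0.66. In RNA 10 rose and 3 fell (8 and 6 after median-of-ratios scaling), where 50.9 percent of all genes rose. Slc2a1, the glucose transporter Glut1 of growing cells, had 49.4 and 48.4 RPKM in culture, against 5.28 and 9.58 RPKM in BAT and rose by 2.78 ± 0.28 (adjusted p = 7.36e-06). Tpi1 had 1948 and 1894 RPKM in culture, against 669 and 704 RPKM in BAT, a rise of 1.49 ± 0.10. Pgk1 had 2249 and 2304 RPKM in culture, against 973 and 1039 RPKM in BAT, a rise of 1.18 ± 0.10. Ldha, which makes lactate, had 4792 and 4526 RPKM in culture, against 2319 and 2327 RPKM in BAT and rose by 1.00 ± 0.09. Pfkm, the muscle form of phosphofructokinase, fell, with 48.1 and 42.4 RPKM in culture, against 81.5 and 93.3 RPKM in BAT and a difference of -0.95 ± 0.25.

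Among 14 measured adipokines and secreted proteins of fat, 7 rose and 5 fell (4 and 6 after median-of-ratios scaling) in RPF. Of all genes 35.9 percent rose and 8.4 percent fell (11.8 and 17.4 percent after scaling). Nampt, which makes NAD and is also secreted, had 940.5 and 936 RPKM in culture, against 287 and 293 RPKM in BAT and rose by 1.69 ± 0.17. Apoe, the lipoprotein of lipid transport, had 1091 and 1104 RPKM in culture, against 2306 and 2294 RPKM in BAT and fell by 1.07 ± 0.10. Igf1, insulin-like growth factor, had 44.2 and 62.6 RPKM in culture, against 122 and 134 RPKM in BAT and fell by 1.28 ± 0.19. Vegfb, a vascular growth factor, fell in RNA by 0.88 ± 0.12 and rose in RPF by 0.78 ± 0.25 under the deposited scaling only, with an Eff difference of 1.66 ± 0.27.

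In the matrix genes RNA and RPF parted, as they did in some lists described after them. Fibroblasts and preadipocytes make collagens and other matrix proteins, and adipocytes make less as they mature. Of 53 matrix genes listed, 44 were measured. In RNA 37 rose and 4 fell (33 and 5 after median-of-ratios scaling), with a median of 1.6. In RPF 20 rose and 14 fell (13 and 17 after median-of-ratios scaling), with a median of 0.20, which turned to -0.28 after scaling. In Eff 3 rose and 36 fell (1 and 37 after median-of-ratios scaling), with a median of -1.27, against 0.11 over all genes.

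Col1a1, the main chain of type I collagen, had 659 and 602 RPKM in culture, against 182 and 256 RPKM in BAT in RNA, a rise of 1.55 ± 0.13 (adjusted p = 5.77e-07). In RPF it had 639 and 659 RPKM in culture, against 1010.5 and 923 RPKM in BAT, a fall of 0.57 ± 0.09 (adjusted p = 0.000367). Its Eff was 1.03 in culture and 4.47 in BAT, a fall of 2.12 ± 0.17 on the log2 scale. Col1a2, the second chain, and Col3a1, type III collagen, also rose in RNA, by 1.34 ± 0.10 and 0.41 ± 0.08 (Col3a1 under the deposited scaling only), and fell in RPF, by 0.65 ± 0.11 and 1.06 ± 0.09. Sparc, which binds collagen, had 2145 and 2048 RPKM in culture, against 1085 and 1320.0 RPKM in BAT in RNA and 1759 and 2038 RPKM in culture, against 2467 and 2594 RPKM in BAT in RPF. Of the 63 genes with RNA up and RPF down, 7 are in the matrix list.

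Fn1, fibronectin, rose in RNA by 2.69 ± 0.13 and in RPF by 0.50 ± 0.12 (deposited scaling only), and its Eff fell by 2.19 ± 0.19. Lox, the enzyme that crosslinks collagen, rose in both assays, with 241 and 279 RPKM in culture, against 27.1 and 27.1 RPKM in BAT in RPF and differences of 3.26 ± 0.13 and, in RNA, 4.46 ± 0.13. Bgn, a small proteoglycan, had 794 and 889 RPKM in culture, against 163 and 176 RPKM in BAT and rose by 2.31 ± 0.10, and P4ha1, the collagen hydroxylase, by 2.51 ± 0.14. Eln, elastin, had 1.96 and 2.31 RPKM in culture, against 22.5 and 25.0 RPKM in BAT and fell by 3.48 ± 0.22 in RPF and 0.64 ± 0.16 in RNA. Lum, lumican of the collagen fibril, had 14.0 and 17.6 RPKM in culture, against 176 and 171 RPKM in BAT and fell by 3.46 ± 0.27, and Dcn, decorin, had 337 and 382 RPKM in culture, against 934 and 1060.3 RPKM in BAT and fell by 1.47 ± 0.11, with an RNA difference of -0.13 ± 0.13 that did not pass under the deposited scaling.

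Tnc, tenascin C, stood apart from the other matrix genes, with an Eff rise of 2.37 ± 0.35 (adjusted p = 0.000116), the third largest of all. In RPF it had 14.4 and 13.6 RPKM in culture, against 0.921 and 1.68 RPKM in BAT, where the values are low. In RNA it had 6.85 and 6.81 RPKM in culture, against 2.60 and 3.80 RPKM in BAT. Timp3 and Ltbp2, which binds fibrillin, were the other matrix genes that rose in Eff, under the deposited scaling only, by 0.89 ± 0.27 and 0.92 ± 0.31, and both fell in RNA.

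Basement membrane genes had a like pattern in Eff. Of 16 listed, 13 were measured. In RNA 11 rose and 0 fell (9 and 1 after median-of-ratios scaling), where 50.9 percent of all genes rose (27.8 percent after scaling). In RPF 6 rose and 2 fell (5 and 4 after median-of-ratios scaling). In Eff 0 rose and 9 fell (0 and 12 after median-of-ratios scaling), where 9.12 percent of all genes fell (12.6 percent after scaling). Col4a1, of type IV collagen, had 659 and 644 RPKM in culture, against 154 and 208 RPKM in BAT in RNA and 313 and 298 RPKM in culture, against 164 and 173 RPKM in BAT in RPF, rises of 1.87 ± 0.11 and 0.86 ± 0.12. Lamc1, the laminin chain shared by most laminins, rose in RNA by 1.43 ± 0.10, and its RPF difference of -0.02 ± 0.14 did not pass under the deposited scaling. Lama2, a laminin chain of muscle and nerve, fell in RPF by 0.93 ± 0.19.

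Markers of fibroblasts and preadipocytes fell in RPF more often than all genes did and were mostly raised in RNA. Of 23 measured (32 listed), 8 rose and 10 fell (4 and 13 after median-of-ratios scaling) in RPF. Among all genes 35.9 percent rose and 8.4 percent fell (11.8 and 17.4 percent after scaling). In RNA 16 rose and 3 fell (15 and 5 after median-of-ratios scaling), where 50.9 percent of all genes rose (27.8 percent after scaling). Pdgfra, the receptor that marks adipocyte precursors, had 39.9 and 39.9 RPKM in culture, against 10.4 and 7.44 RPKM in BAT in RNA and 67.9 and 75.1 RPKM in culture, against 35.5 and 37.9 RPKM in BAT in RPF, differences of 2.18 ± 0.18 and 0.96 ± 0.18, the second of which passed under the deposited scaling only. Postn, periostin, had 464 and 460.5 RPKM in culture, against 131 and 154 RPKM in BAT and rose by 1.70 ± 0.12. Ly6a (Sca1), of stem and endothelial cells, had 27.6 and 32.0 RPKM in culture, against 199 and 247 RPKM in BAT and fell by 2.90 ± 0.21, and Dpt, dermatopontin, had 83.8 and 83.8 RPKM in culture, against 382 and 410.0 RPKM in BAT and fell by 2.24 ± 0.14. Both groups held transcripts of fibroblasts, and the part of fibroblasts in the matrix differences was not tested. The fibroblast and matrix lists share members, among them Col1a1, Col1a2 and Col3a1.

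The level of Eff in each group shows where the matrix genes differ. Their median Eff was 1.01 in culture at day 5 and 2.40 in BAT, and 1.15 in culture at day 0. The white set had 1.16 in culture and 1.59 in eWAT. Over all genes it was 0.895 in culture at day 5 and 0.861 in BAT. Since RPF and RNA are each scaled to their own total, an Eff of 1 is no fixed point, and the values serve for comparison only.

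**Figure D4:**
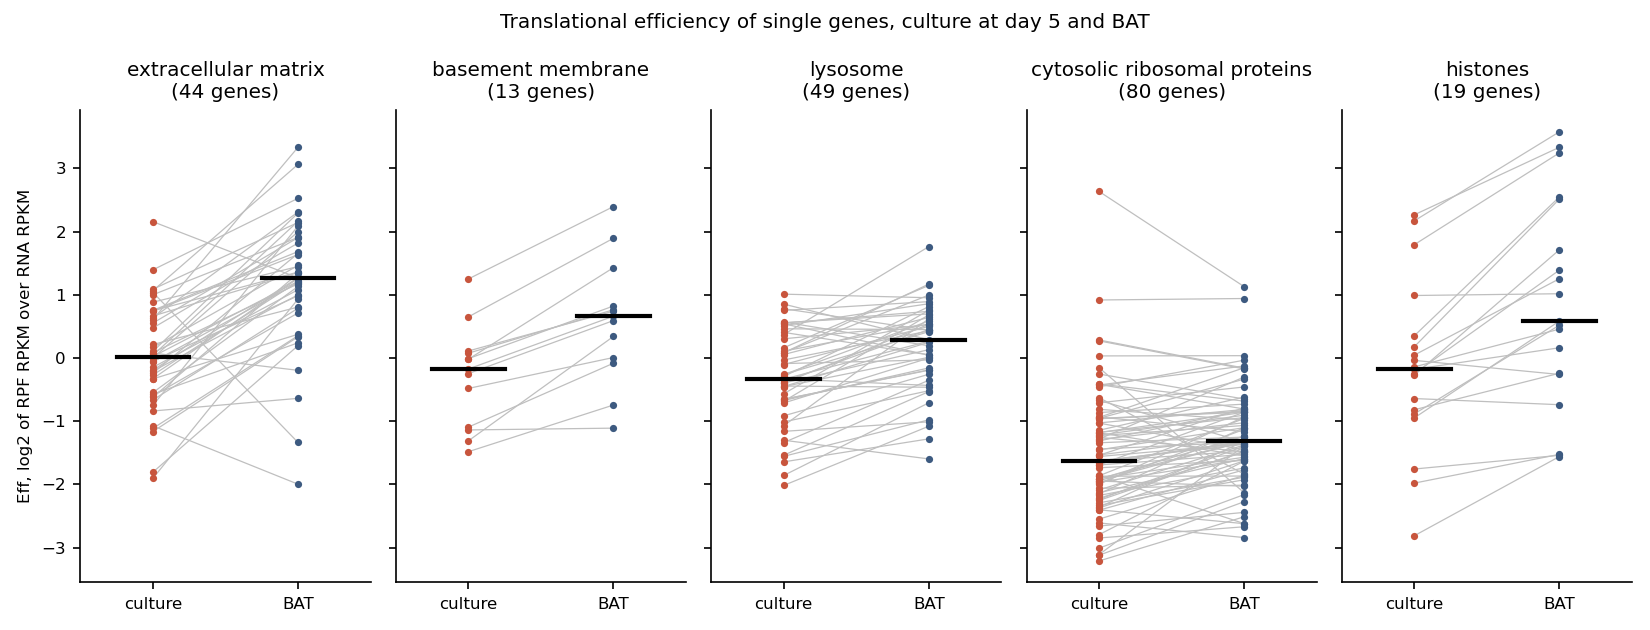
Eff (RPF RPKM over RNA RPKM, log2 axis) of each measured gene of 5 lists, cultured brown adipocytes at day 5 on the left and BAT on the right of each panel, with a grey line joining a gene and a black bar at the median. Matrix genes have a median of 1.01 in culture and 2.40 in BAT, and ribosomal proteins of 0.324 in culture and 0.401 in BAT.

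Lysosomal genes parted in the same way by a smaller amount. Of 51 listed, 49 were measured. In RNA 35 rose and 2 fell (22 and 7 after median-of-ratios scaling), where 50.9 percent of all genes rose (27.8 percent after scaling). In RPF 13 rose and 10 fell (6 and 24 after median-of-ratios scaling). In Eff 1 rose and 20 fell (0 and 28 after median-of-ratios scaling), where 9.12 percent of all genes fell (12.6 percent after scaling). Grn, progranulin, had 262 and 254 RPKM in culture, against 87.5 and 106 RPKM in BAT in RNA, a rise of 1.42 ± 0.10, and 116 and 130.3 RPKM in culture, against 149 and 146 RPKM in BAT in RPF, a difference of -0.27 ± 0.13 that did not pass under the deposited scaling. Cd63, a tetraspanin of late endosomes, rose in RNA by 1.99 ± 0.08 and fell in Eff by 1.32 ± 0.13 (adjusted p = 6.99e-07). Ctsl, a cathepsin, rose in both assays, with 859.5 and 986 RPKM in culture, against 458 and 496 RPKM in BAT in RPF, while Ctsb, another, had 1217 and 1487 RPKM in culture, against 2116 and 2215 RPKM in BAT and fell by 0.69 ± 0.10. Atp6v0e, of the proton pump, had 915 and 958 RPKM in culture, against 369 and 388 RPKM in BAT and rose by 1.31 ± 0.11.

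**Figure D5:**
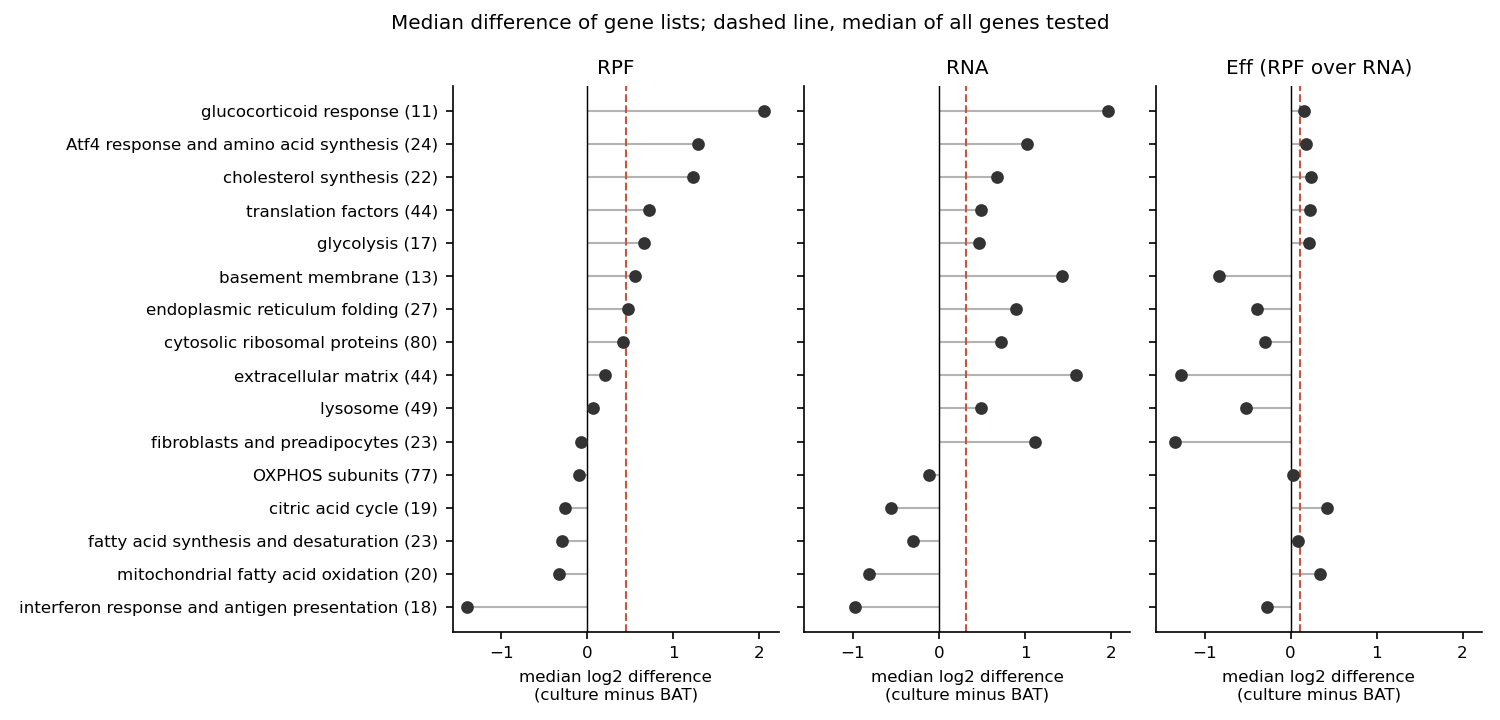
Median log2 difference (x axis, culture minus BAT) of 16 gene lists in RPF, RNA and Eff, with the all-gene medians of 0.45, 0.32 and 0.11 as vertical lines. Numbers of measured genes stand beside each name. The matrix, basement membrane and fibroblast lists have high RNA medians (1.6, 1.43 and 1.12) and low Eff medians (-1.27, -0.83 and -1.34). The matrix and fibroblast lists share members, such as Col1a1, Col1a2, Col3a1, Tnc, Dcn and Lum, so their medians are not independent.

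Cytosolic ribosomal proteins were raised in RNA almost as a block. Of 83 genes listed, 80 were measured, of which 79 rose and 0 fell (58 and 0 after median-of-ratios scaling) in RNA, 42 rose and 1 fell (14 and 13 after median-of-ratios scaling) in RPF and 5 rose and 24 fell (4 and 31 after median-of-ratios scaling) in Eff. In RPF the direction thus rests on the scaling. Of all genes 50.9 percent rose in RNA (27.8 percent after scaling) and 9.12 percent fell in Eff (12.6 percent after scaling). Processed copies of these genes are many in the genome, so single values are uncertain. Rps6, the ribosomal protein phosphorylated downstream of insulin, had 375 and 373 RPKM in culture, against 147 and 147 RPKM in BAT and rose by 1.34 ± 0.12 in RPF and 1.45 ± 0.09 in RNA. Rpl13a, of the large subunit, had 2109.6 and 1789 RPKM in culture, against 809 and 886 RPKM in BAT in RNA and 209 and 239 RPKM in culture, against 172 and 179 RPKM in BAT in RPF, with an Eff fall of 0.85 ± 0.13.

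A few of the shortest ribosomal proteins moved apart from the rest. The paper reports footprints densest at start and stop codons, and the part of this in short coding sequences was not tested. Rpl38 had 3143 and 2832 RPKM in culture, against 647 and 842 RPKM in BAT in RPF and 478 and 483 RPKM in culture, against 309.5 and 368 RPKM in BAT in RNA, an Eff rise of 1.5 ± 0.20 (adjusted p = 2.89e-05). Rpl41 had 3108 and 3059.7 RPKM in culture, against 609 and 787 RPKM in BAT and rose in Eff by 1.98 ± 0.20, and Rps28 had 1072 and 1075 RPKM in culture, against 262 and 192 RPKM in BAT and rose by 1.21 ± 0.33. Rps27 went down instead, with 43.9 and 39.1 RPKM in culture, against 87.8 and 82.5 RPKM in BAT and an Eff fall of 1.72 ± 0.26.

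Translation factors rose more evenly: of 44 measured 33 rose and 0 fell (13 and 2 after median-of-ratios scaling) in RPF. In RNA 35 rose and 0 fell (18 and 4 after median-of-ratios scaling). Of all genes 35.9 percent rose in RPF and 50.9 percent in RNA (11.8 and 27.8 percent after scaling). Eif5, an initiation factor whose own start codon choice is regulated, had 110.1 and 110.3 RPKM in culture, against 19.9 and 18.0 RPKM in BAT. It rose by 2.54 ± 0.22 in RPF, with an RNA difference of 0.27 ± 0.16 that did not pass. Histone mRNAs, whose replication-dependent forms lack a poly(A) tail, rose in RNA in 18 of 19 measured genes (13 after scaling) and in RPF in 5 (1 after scaling, where 4 fell). Hist1h4h, a histone H4 gene, had 255 and 223 RPKM in culture, against 38.4 and 61.6 RPKM in BAT in RNA and 319.5 and 291 RPKM in culture, against 273 and 297 RPKM in BAT in RPF, an Eff difference of -2.20 ± 0.28. All libraries were labelled as poly(A) RNA, and histone genes are alike in sequence, so these values are uncertain.

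Genes of the interferon response and antigen presentation were lower in culture. Of 38 listed, 18 were measured, of which 0 rose and 14 fell (0 and 16 after median-of-ratios scaling) in RPF and 1 rose and 13 fell (1 and 17 after median-of-ratios scaling) in RNA, with medians of -1.40 and -0.97. B2m, the light chain of MHC class I, had 1093 and 1135 RPKM in culture, against 3111 and 3154 RPKM in BAT, a fall of 1.49 ± 0.10 (adjusted p = 2.65e-07). H2-D1 and H2-K1, heavy chains, had 143 and 122 RPKM in culture, against 462 and 529.9 RPKM in BAT and 188 and 223 RPKM in culture, against 424 and 454 RPKM in BAT, differences of -1.91 ± 0.18 and -1.10 ± 0.14, and reads could be shared among the H2 genes.

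Bst2 (tetherin), which holds budding viruses, had 27.4 and 26.9 RPKM in culture, against 96.9 and 87.5 RPKM in BAT and fell by 1.76 ± 0.20. Irgm1 and Ddx58 (RIG-I), of the defence inside cells, fell by 1.44 ± 0.35 and 1.36 ± 0.32. Ifitm2 was the single member called higher, in RNA by 0.98 ± 0.15, with an RPF difference of 0.20 ± 0.16 that did not pass. Each nucleated cell makes these proteins, and immune cells make them in larger amounts, so that the low lysozyme level given above stands beside this group, and its part was not tested.

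The largest changes of Eff lay outside these lists as well. Lowest were Lpp, Qpct, Fbln1, Eln and Vcan. The RNA values of Lpp in BAT are low, and its Eff rests on them. The lowest inferred reads of a gene in the BAT RNA libraries were 4 and 5. Lpp, an adaptor of focal adhesions, had 9.64 and 10.1 RPKM in culture, against 0.332 and 0.641 RPKM in BAT in RNA and 50.7 and 57.8 RPKM in culture, against 23.6 and 24.6 RPKM in BAT in RPF, an Eff difference of -3.25 ± 0.36 (adjusted p = 3.48e-06). Qpct, which caps peptides with pyroglutamate, had 9.47 and 7.58 RPKM in culture, against 4.08 and 3.79 RPKM in BAT in RNA and 10.3 and 5.48 RPKM in culture, against 30.8 and 29.1 RPKM in BAT in RPF, opposite in direction, with an Eff difference of -3.11 ± 0.38. Fbln1, fibulin 1, and Vcan, the proteoglycan versican, had Eff differences of -2.83 ± 0.31 and -2.72 ± 0.37.

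Highest in Eff were Sgk1, Znhit6, Tnc, Usmg5 and Eif5. Znhit6, which helps to build small nucleolar ribonucleoproteins, had 38.2 and 39.6 RPKM in culture, against 3.23 and 5.33 RPKM in BAT in RPF and 12.5 and 16.9 RPKM in culture, against 9.52 and 7.47 RPKM in BAT in RNA, an Eff difference of 2.44 ± 0.33 (adjusted p = 3.79e-05). Of these 5 genes, RNA of Sgk1 fell, that of Znhit6 and Tnc rose, and that of Usmg5 and Eif5 did not pass.

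The white set was used to ask whether a difference between culture and tissue was larger or smaller in brown fat. The difference between the brown and the white difference was tested in the same fits, with the limit that the white culture is subcutaneous and the white tissue epididymal. In RPF, the brown difference was higher than the white in 701 genes (13.9 percent) and lower in 375 (7.45 percent), against 327 (6.49 percent) and 551 (10.9 percent) after scaling. In RNA it was higher in 2583 genes (51.3 percent) and lower in 729 (14.5 percent), against 1529 (30.4 percent) and 1295 (25.7 percent).

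Mitochondrial genes differed between the sets. White adipocytes in culture had more of them than eWAT, with a median RPF difference of 1.48 for the subunits of oxidative phosphorylation, where the brown median was -0.10. The brown difference was lower than the white in 66 of the 77 subunits in RPF and higher in 3. In the citric acid cycle it was lower in 16 of 19 genes, and in fatty acid oxidation in 17 of 20.

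In fatty acid synthesis and desaturation the brown difference was lower than the white in 12 of 23 genes in RPF, higher in 2 and not called in the rest. Fasn had 2215 RPKM in white culture and 2354 in eWAT, and the sets differed by -2.34 ± 0.22 (adjusted p = 9.01e-06). Elovl6 and Acsl5 differed between the sets by -3.86 ± 0.38 and -4.01 ± 0.34. Insig1 was higher in culture in both sets, with 827 RPKM in white culture and 75.4 in eWAT, and the brown difference was lower than the white, at -2.09 ± 0.28 on the log2 scale.

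Thbs1 had a higher brown than white difference, by 4.64 ± 0.46. Thbs1 averaged 95.3 RPKM in white culture and 115 in eWAT. The brown difference was also the higher in Fkbp5 and Phgdh, by 3.16 ± 0.33 and 3.34 ± 0.20, and Phgdh averaged 161 RPKM in white culture and 432 in eWAT. For Cfd, Igfbp5, Igfbp3, Ms4a4d and Tnxb, the difference between the sets did not pass under the deposited scaling. Cfd averaged 1189.6 RPKM in white culture and 28865 in eWAT, a difference between the sets of 0.49 ± 0.18.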

How the data were processed

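Ribosome footprints and RNA were sequenced from the same samples. Per the labels and the methods of the study, the authors trimmed reads with cutadapt 1.8.3, built a consensus transcriptome from RNA-seq with TopHat2 2.0.9 and Cufflinks, keeping the most abundant isoform of a gene, and aligned all reads to it with Bowtie 1.0.0 at a single site without mismatches. The deposited values are RPKM over the coding sequence, scaled to each library's mapped reads, so a few abundant genes lower the values of all others. The genome build is not given in the sources used here. Reads that fit several places are lost or placed at 1 of them, which bears on gene families.

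The table held 22418 genes, of which 6219 had no value and 11164 had values in some libraries only, with a blank last column. These were left out, since it could not be told which libraries their values belong to, and the 5035 complete genes were tested. Values were turned to log2 of the deposited RPKM without a pseudocount and fitted with limma 3.58.1 in R 4.3.3 (group means, moderated variance with trend), RPF and RNA in fits of their own over 12 libraries and Eff in a joint fit of all 24, as the difference between assays of the group difference. The scripts were tested on simulated data. The depth of each library was inferred, as the first candidate for which nearly all genes came out as whole reads. Whole reads are thus no check of the depth. Multiplying RPKM by coding length and this depth gave reads, and 4769 genes came out whole within 0.05 reads in every library. The depths of the compared libraries lie below the read number per sample that the paper states. Benjamini and Hochberg adjustment ran over all genes.

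Named are the genes the study uses as markers or examples, the 8 highest and lowest differences in RPF and RNA and the 5 in Eff among genes past the test whose groups do not overlap, and for each list up to 4 members in each direction with the smallest adjusted p and the 2 most abundant. Some genes that this rule takes are not reported here. Others are said to be named after their values were seen. The members, the gene lists and the tests were chosen with earlier results of these data known. Alternatives were a pseudocount of 1, a mean of at least 5 RPKM, median-of-ratios and quantile scaling, the compared groups alone and no variance trend. Further ones were a replicate block (for Eff, RPF and RNA libraries paired by number), a weight per assay and limma-voom on recovered reads. A fold of at least 2 and each library left out were the last. Figures were drawn with matplotlib, and promoter windows came from RefSeq (GRCm38.p6).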

Additional observations from a re-analysis of the deposited data

Results flagged for a closer look

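The difference between culture and tissue was not the same in brown and white fat, by a test of that difference in the fits over all libraries of an assay (limma, 5035 genes). In RPF the brown difference was higher than the white in 701 genes and lower in 375, and in RNA it was higher in 2583 and lower in 729. After median-of-ratios scaling the counts were 327 and 551 in RPF, where the balance turned, and 1529 and 1295 in RNA. The white culture was subcutaneous and eWAT epididymal, so that in the white set depot and culture cannot be told apart. Of the 14 genes described for the highest or lowest brown differences in RPF, 8 differed between the sets. They were chosen for an extreme brown difference, which is a term of the difference tested. The brown minus white difference was 4.64 for Thbs1, 3.16 for Fkbp5, 1.27 for Ero1l, 1.26 for Pck2 and 0.89 for Fabp5. It was 0.98 for Trf, which did not pass after median-of-ratios scaling, -1.29 for Lyz2 and -3.86 for Elovl6.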

How the results depend on the processing

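The counts changed with the scaling and with the fold asked for. Median-of-ratios scaling gave 595 genes higher and 878 lower in RPF, 1398 and 1341 in RNA and 233 and 636 in Eff, and between brown and white differences 327 and 551 in RPF and 1529 and 1295 in RNA. Quantile scaling gave 589 and 596 in RPF, 1290 and 1402 in RNA, 252 and 440 in Eff, 378 and 404 in the brown minus white difference of RPF and 1350 and 1331 in that of RNA. A fold of at least 2 left 888 and 217 in RPF, 625 and 166 in RNA, 188 and 287 in Eff, 529 and 312 in the brown minus white RPF and 1166 and 339 in the brown minus white RNA. Voom on recovered reads gave 779 genes higher in Eff and 1093 in the brown minus white RPF. The pseudocount, the filter, the compared groups alone, the variance trend and the assay weight kept each count of all genes within 1.5 times where a value could be had. The brown minus white difference cannot be fitted in the compared groups alone.

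Leaving out 1 library gave 1129 to 1336 genes higher and 282 to 313 lower in RPF, 2165 to 2662 and 518 to 697 in RNA, 224 to 400 and 328 to 430 in Eff, 422 to 530 and 293 to 309 in the brown minus white RPF and 2347 to 2722 and 654 to 809 in the brown minus white RNA. Genes higher in RPF were 1129 without BAT replicate 1 and 1171 without culture replicate 1. In the brown minus white RPF they were 422 without BAT replicate 1, 463 without culture replicate 1 and 459 without culture replicate 2. In Eff they were 260 and 268 without RPF replicate 1 of BAT or of culture, 262 without RNA replicate 1 of BAT, and 224 and 233 without RNA replicate 1 or 2 of culture. The cause was not tested.

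Deviations of culture and BAT libraries with the same replicate number had an r of -0.00069 in RPF and -0.33 in RNA. Those samples were not paired by design. Between the RPF and RNA libraries of the same number, r was -0.022 in culture and -0.056 in BAT. The main Eff fit did not pair RPF with RNA, although BAT was shared between the assays. With the replicate block 1782 genes were higher and 417 lower in RPF, and 2565 and 633 in RNA. For Eff the block was replaced by a fit of RPF minus RNA of libraries paired by number. It gave 341 genes higher and 423 lower.

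Among named genes, 158 had passed in RPF, of which 141 kept their call and direction after median-of-ratios scaling and 158 with the block. In Eff 70 of 88 kept it after scaling and 79 with the fit of paired libraries. After median-of-ratios scaling the difference changed sign to -0.19 for Atp5b, -0.033 for Canx, -0.38 for Hist1h4h, -0.13 for Rpl13a and -0.32 for Scd1 in RPF, and to -0.28 for Atp5g2 and -0.0019 for Idh2 in RNA. After quantile scaling it changed sign to -0.019 for Rpl13a in RPF, to -0.17 for Fbln1 in RNA and to -0.76 for Cfd in the brown minus white RPF. Inferred depth was lower in RPF, with a median of 38 to 75 reads per gene in the compared libraries, against 252 to 473 in RNA.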

Other observations

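Further gene lists were counted in the same way. Over all genes 35.9 percent rose and 8.4 percent fell in RPF (11.8 and 17.4 percent after median-of-ratios scaling), 50.9 and 12.7 percent in RNA (27.8 and 26.6) and 8.72 and 9.12 percent in Eff (4.63 and 12.6). The enzymes that break down leucine, isoleucine and valine, fuels of brown fat, were mostly lower in RNA, where of 19 measured genes (20 listed) 3 rose and 11 fell (1 and 14 after median-of-ratios scaling). In RPF 2 rose and 4 fell (1 and 9 after median-of-ratios scaling). Bcat2, the mitochondrial transaminase that opens the pathway, went the other way, with 551 and 581 RPKM in culture, against 176 and 176 RPKM in BAT and a difference of 1.69 ± 0.19. Mccc2, a carboxylase subunit of leucine breakdown, had 47.4 and 37.0 RPKM in culture, against 123 and 118 RPKM in BAT and fell by 1.52 ± 0.25. Ivd, the dehydrogenase upstream of it, had 113 and 101 RPKM in culture, against 271 and 307 RPKM in BAT in RNA, a fall of 1.43 ± 0.10, beside an RPF difference of -0.35 ± 0.14 that did not pass under the deposited scaling and an Eff rise of 1.08 ± 0.17.

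Of 14 measured heat shock proteins of the cytosol (19 listed), 7 rose and 1 fell (5 and 2 after median-of-ratios scaling) in RPF and 5 rose and 0 fell (4 and 1 after median-of-ratios scaling) in Eff. Hspa8, the constitutive Hsp70, had 1116 and 1084 RPKM in culture, against 551 and 569 RPKM in BAT and rose by 0.97 ± 0.09. Dnaja1, a co-chaperone of Hsp70, had 264 and 260.0 RPKM in culture, against 131 and 116 RPKM in BAT in RPF and 125 and 139 RPKM in culture, against 151 and 115 RPKM in BAT in RNA, an Eff rise of 1.09 ± 0.18. Hsp90ab1, the constitutive Hsp90, fell by 0.90 ± 0.10, while Hsp90aa1, the inducible form, rose by 0.92 ± 0.11. Among 17 measured genes of cell division (36 listed) 8 rose and 0 fell (7 and 1 after median-of-ratios scaling) in RPF. Cdkn1a (p21), which stops the cell cycle, had 309 and 309 RPKM in culture, against 67.5 and 60.3 RPKM in BAT and rose by 2.28 ± 0.16. Mki67, a marker of dividing cells, had 2.31 and 2.99 RPKM in culture, against 0.481 and 0.51 RPKM in BAT in RNA, a rise of 2.41 ± 0.21, and 1.06 and 0.73 RPKM in culture, against 0.585 and 0.832 RPKM in BAT in RPF, where its difference of 0.34 ± 0.33 did not pass. Of 10 measured immediate early genes (32 listed) 7 rose and 2 fell (5 and 2 after median-of-ratios scaling) in RPF. Myc had 33.1 and 33.2 RPKM in culture, against 7.61 and 6.01 RPKM in BAT and rose by 2.29 ± 0.37, and Jun, a subunit of AP-1, had 19.2 and 14.9 RPKM in culture, against 34.4 and 37.2 RPKM in BAT and fell by 1.08 ± 0.24.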
